A study of Mus musculus with 8 samples.

Results

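Complex I (NADH:ubiquinone oxidoreductase) was followed through its nuclear genes in granulosa cells, which nurse the oocyte inside an ovarian follicle. The genes were all rows of the expression tables whose name begins with Nduf and does not contain -ps, which gave 46 of 35087 named rows. They comprise 7 core subunits, 29 accessory subunits, 8 assembly factors, and Ndufa4 and Ndufa4l2, which carry the Nduf name without being counted as complex I subunits today. Ndufb1 was not analysed here. All 46 genes passed the filter on low counts.

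The cKO mice (n = 2 libraries) were Hif1a flox/flox with Foxl2-CreERT2, a Cre recombinase under control of Foxl2, a gene of granulosa cells, that acts once tamoxifen is given, and their genotype label reads Hif1a knockdown. The WT mice (n = 6 libraries) were also Hif1a flox/flox, with no Cre named in the design, and are labelled Hif1a wild type, so both groups carry the floxed alleles. Females of both groups received tamoxifen at 100 mg/kg on each of 5 days, starting at 3 weeks old, and gave their ovaries 7 days after dosing ended. Granulosa cells were cut from cryosections by laser microdissection, and polyadenylated RNA was amplified by the Smart2-seq protocol. A cKO prefix stands in the library names of all 8 samples, including the 6 whose titles and genotypes say WT, and the titles were followed here. No label ties a library to an animal, so some libraries may share one. The p-values below then are too small, and they cover no more than the spread among these 8 libraries.

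Complex I takes electrons from NADH, passes them along a chain of iron-sulfur clusters to ubiquinone, and pumps protons across the inner mitochondrial membrane. Its N module oxidises NADH, its Q module reduces ubiquinone, and its membrane arm, built partly from subunits of the mitochondrial genome, moves the protons. In granulosa cells, which also rely on glycolysis, the transcription factor HIF1 is best known for inducing glycolytic genes and, among the Nduf names, Ndufa4l2. Transcription of many respiratory chain genes is known to be driven by NRF1, by ETS family factors such as GABPA, and by YY1.

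Promoter sequences are shown for 2 sets of genes. These are genes with an NRF1 motif upstream of a RefSeq start, and genes where the HIF1 core searched lies within the palindrome CACGTG. RefSeq promoter windows on GRCm38.p6 (250 bases before to 50 after each start) were at hand for 40 of the 46 genes. The NRF1 motif searched is the string of 10 letters in capitals below, with 1 of the inner pair of bases left free, and on both strands it lay in the windows of 9 of these 40 genes (22.5%), against 5.19% of all 27025 genes with a window. The 2 annotations used here differ in their starts. In GENCODE M21 the stretches shown for Ndufa5, Ndufa8, Ndufb4 and Ndufs6 lie inside the annotated gene. Capitals mark this motif in the following 60-base stretches, all of which end before a RefSeq start and run 5′ to 3′ on the strand of the gene.
Ndufa5 (chr6:24527691-24527750, minus strand): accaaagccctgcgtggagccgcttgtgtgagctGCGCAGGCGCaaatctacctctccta
Ndufa8 (chr2:36049339-36049398, minus strand): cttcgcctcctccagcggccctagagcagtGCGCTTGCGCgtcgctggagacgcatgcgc
Ndufa11 (chr17:56717677-56717736, plus strand): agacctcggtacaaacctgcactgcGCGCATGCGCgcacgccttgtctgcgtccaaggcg
Ndufaf4 (chr4:24897945-24898004, plus strand): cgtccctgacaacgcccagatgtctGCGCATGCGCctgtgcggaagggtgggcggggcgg
Ndufb4 (chr16:37654369-37654428, minus strand): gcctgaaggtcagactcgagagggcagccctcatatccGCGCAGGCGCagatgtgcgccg
Ndufs5 (chr4:123718250-123718309, minus strand): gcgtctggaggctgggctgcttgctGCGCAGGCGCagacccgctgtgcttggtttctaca
Ndufs6 (chr13:73328483-73328542, minus strand): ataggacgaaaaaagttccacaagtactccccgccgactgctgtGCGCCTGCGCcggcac

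The YY1 core AAGATGG was found in 8 of the 40 genes (20%, against 7.28% of all genes), in every case within 50 bases after the start. The ETS motif CCGGAAG was found in 6 of 40 (15%, against 9.93%). The string ACGTG, searched as the HIF1 core, lay in 7 of 40 (17.5%), below the 21.8% over all genes. No other form of the HIF1 motif was searched, so these shares hold for that string alone. In Ndufa7 and Ndufv1 the core occurs as CACGTG, in capitals below, where both strands match in overlapping positions. Such a match is a string of letters, and binding was not measured.
Ndufa7 (chr17:33824471-33824530, plus strand): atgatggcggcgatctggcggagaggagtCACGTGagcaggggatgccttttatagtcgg
Ndufv1 (chr19:4012894-4012953, minus strand): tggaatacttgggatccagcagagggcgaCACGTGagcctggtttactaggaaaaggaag

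The targeted gene, Hif1a, had 22.2 and 13.6 CPM (the normalised read count, a gene's reads relative to the TMM-scaled library total) in cKO and 35.3 to 106 CPM in WT, with no overlap (log2 fold change -1.84 ± 0.58, edgeR adjusted p = 0.369). Depth on named genes was 2054584 and 651426 reads in cKO and 1594803 to 4719293 reads in WT. Between 12120 and 12847 genes had at least 5 reads in cKO, against 13597 to 14727 in WT. The mitochondrial genome took 8.87% and 10.5% of reads in cKO and from 1.43% to 3.65% in WT. Sums over marker lists in this paragraph are CPM without TMM scaling. Summed granulosa markers (10 genes, Foxl2, Fshr and Inha among them) had 1555 to 4247 CPM in cKO and 3408 to 50800 CPM in WT, and none was at 0 in cKO. The sum leans on Inha, whose WT mean was 17062 CPM after TMM scaling. Gene by gene, 9 had a log2 fold change below 0 and 1 above, with a median of -1.75. At an unadjusted p under 0.05 in edgeR, 5 were lower (8.89% of all genes) and 0 higher (3.4%). Fshr was the 1 gene lower with no overlap (6.41% of all genes). After TMM scaling, Fshr had 10.6 and 6.79 CPM in cKO and 40.4 to 128 CPM in WT. Its log2 fold change was -3.09 ± 0.67 (edgeR adjusted p = 0.369). The other markers overlapped, among them Foxl2, with 126 and 88.3 CPM in cKO and 90.9 to 330 CPM in WT. Amhr2 had 245 and 113 CPM in cKO and 131 to 352 CPM in WT. Stroma and theca markers (9 genes) had 393 to 1630 CPM in cKO and 16.3 to 1344 CPM in WT. Endothelial markers (7 genes) had 290 to 316 CPM against 86.5 to 482 CPM, blood and macrophage markers (6 genes) 52.2 to 229 CPM against 14.7 to 191 CPM, and oocyte markers (10 genes) 33.8 to 50.1 CPM against 6.71 to 1798 CPM, with Dppa3 alone at 0 in both cKO libraries. Their part in the results below was not tested.

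Nearly all of the 46 nuclear Nduf genes had a lower mean in cKO, and none passed the edgeR test. Of the 46 genes, 43 (93.5%) had a log2 fold change below 0, where 52.7% of all 15102 genes tested did. The median log2 fold change was -0.97 for the 46 genes and -0.08 over all genes tested. With edgeR's quasi-likelihood test and Benjamini-Hochberg adjustment over all genes, 0 members were called at an adjusted p under 0.05, as were 0% of all genes, and adjusted p-values of the members ran from 0.369 to 0.918. At an unadjusted p under 0.05, 14 members (30.4%) were lower in cKO, against 8.89% of all genes, and 0 were higher, against 3.4%. DESeq2 gave 43 members an adjusted p and called 4 of them, all lower (9.3%, against 3.08% of the 7757 genes that it gave one, and 0.387% called higher). These were Ndufa4, Ndufb9, Ndufc1 and Ndufa7. In bulk RNA, fewer granulosa cells in a capture and less RNA of a gene per cell cannot be told apart.

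**Figure D1:**
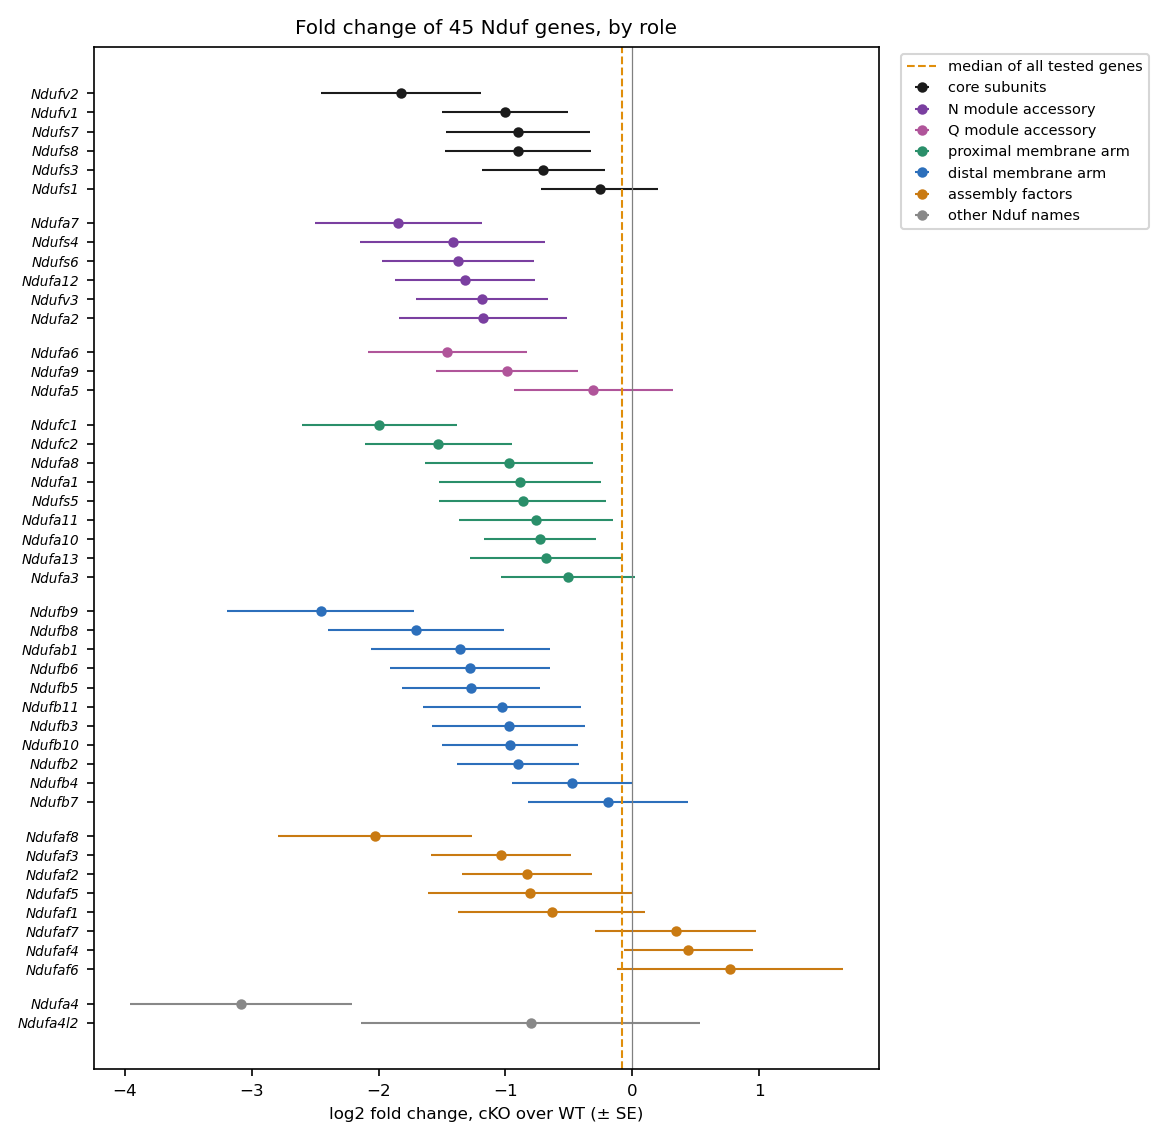
Log2 fold change of 45 of the 46 Nduf genes, cKO over WT (edgeR, ± SE; n = 2 cKO and 6 WT libraries), grouped by role. Points left of 0 are lower in cKO, and 3 assembly factors lie right of 0. The median over all 46 genes was -0.97, beside -0.08 for all tested genes (dashed line).

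The lower means rested mainly on cKO replicate 2, and a WT library shared part of the pattern. Each gene's log2(CPM + 0.5) was set against its mean over the 6 WT libraries, and the median over the 46 genes was taken in every library. It was -0.34 in cKO replicate 1 and -2.10 in cKO replicate 2, and in WT replicates 1 to 6 it was -1.08, 0.49, -0.24, 0.21, 0.24 and 0.17. WT replicate 1 therefore lay below cKO replicate 1. Over all tested genes the same median stayed between -0.02 and 0.07 in the 8 libraries.

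Gene by gene, cKO replicate 2 was the lowest of the 8 libraries in 39 of the 46 genes, where it was lowest in 22.2% of all tested genes. WT replicate 1 was lowest in 5 genes (10.7% of all genes), cKO replicate 1 in 0 (9.79%), and WT replicates 3 and 5 in 1 each (9.08% and 7.4%). The value of cKO replicate 1 lay inside the WT range in 44 of the 46 genes, where 70.5% of all genes did. Below the WT median it stood in 36 genes (51.5% of all genes), and it left the WT range in Ndufc1 (1 gene below, 14.1% of all genes) and in Ndufaf6 (above). By contrast, cKO replicate 2 lay below all 6 WT libraries in 39 genes (24.5% of all genes) and inside their range in 7 (55%). WT replicate 2 was the highest library in 23 genes, with no share over all genes at hand to set beside it.

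The order of the libraries in these medians followed their depth at the low end. The shallowest, cKO replicate 2 with 651426 reads, was lowest, followed by WT replicate 1 with 1594803, cKO replicate 1 with 2054584 and WT replicate 3 with 2330139, while the other 4 WT libraries held between 4305155 and 4719293 reads. The part of depth in the result was not tested. As a share of all reads, with no scaling between libraries, the 46 genes together took 0.636% and 0.222% in cKO replicates 1 and 2. In WT replicates 1 to 6 they took 0.533%, 1.08%, 0.795%, 0.850%, 0.892% and 0.911%.

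**Figure D2:**
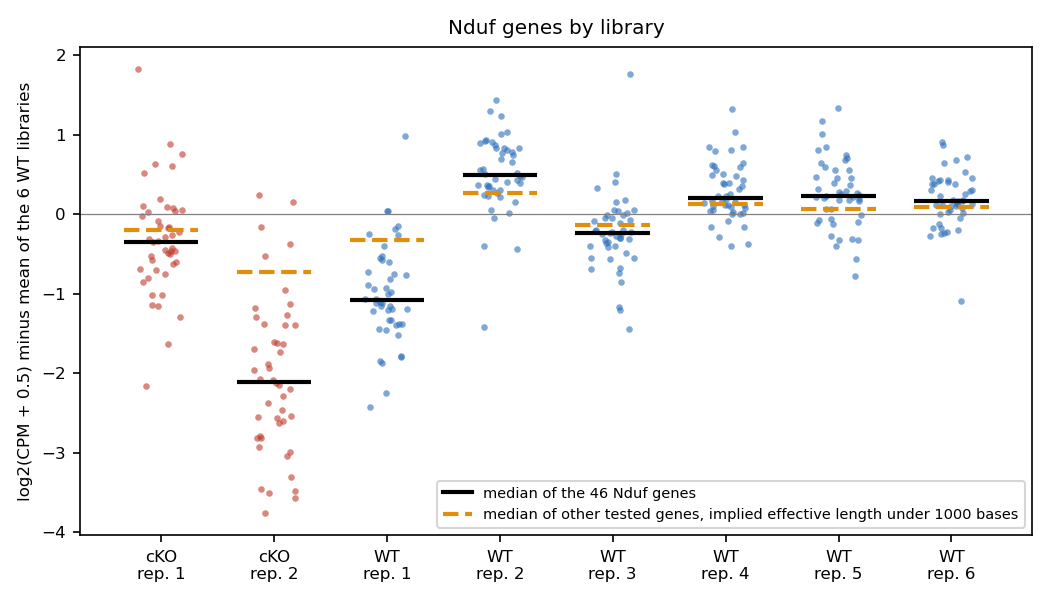
Log2(CPM + 0.5) of each of the 46 Nduf genes (points) minus its mean over the 6 WT libraries, by library, with cKO in red and WT in blue. Black bars give the median of the 46 genes, -0.34 and -2.10 in cKO replicates 1 and 2 and -1.08 in WT replicate 1, and dashed bars the median of other tested genes with an implied effective length under 1000 bases.

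Both cKO libraries lay below all 6 WT libraries in 1 gene, Ndufc1, that is in 2.17% of the members against 6.41% of all genes tested, and 0 members were higher with no overlap, against 6.02%. The count turned on the scaling and moved across the share of all genes: it was 6 (13.0% of the members, 5.91% of all genes) with DESeq2's size factors and 8 (17.4% and 6.96%) with library size alone. Leaving out WT replicate 1 gave 24 (52.2% and 15.1%), leaving out cKO replicate 1 gave 40 (86.96% and 23.5%), and leaving out cKO replicate 2 gave 6 (13.0% and 14.4%). At an unadjusted p under 0.05 in edgeR, omission of cKO replicate 1 gave 34 lower members (73.9%, against 10.2% of all genes) and that of cKO replicate 2 gave 1 (2.17%, against 3.5%). With 1 cKO library left, the spread in these fits comes from the WT libraries alone, and the cKO library is assumed to vary like them. Omission of WT replicate 1 gave 24 (52.2%, against 13% of all genes) and that of WT replicate 2 gave 9 (19.6%, against 8.53%). The median log2 fold change of the 46 genes was -2.25 when cKO replicate 1 was left out and -0.51 when cKO replicate 2 was left out, beside medians of -0.27 and -0.34 over all genes in the same fits.

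The 7 core subunits hold the flavin and the iron-sulfur clusters and were all lower in cKO, at a median of -0.90 (log2 fold change). None was called by edgeR or DESeq2. Ndufv2 (chromosome 17, 66078638 to 66101559 in GRCm38, minus strand), an iron-sulfur subunit beside the NADH site, had 78.2 CPM in cKO replicate 1 and 31.2 CPM in cKO replicate 2, against a lowest, median and highest WT value of 66.1, 222 and 308 CPM. Only WT replicate 1 lay within the cKO range, and the log2 fold change was -1.82 ± 0.63 (SE, edgeR adjusted p = 0.369).

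Ndufv1, which binds NADH and the flavin, had 125 and 53.0 CPM in cKO and 121, 173 and 256 CPM (lowest, median and highest) in WT, for a log2 fold change of -1.003 ± 0.50. Ndufs7 had 248 and 63.9 CPM in cKO and 190.4, 263 and 469.5 CPM in WT, for a log2 fold change of -0.90 ± 0.57. Ndufs8 had 363 and 82.9 CPM in cKO and 308, 385 and 658 CPM in WT, for a log2 fold change of -0.90 ± 0.58. In these 3 genes cKO replicate 2 was below every WT library and cKO replicate 1 was not. Ndufs3 had 92.9 and 50.3 CPM in cKO and 49.7, 123 and 153 CPM in WT, where WT replicate 1 stood apart from the other 5 libraries at 115 CPM or more (log2 fold change -0.70 ± 0.49).

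Ndufs1, the largest subunit of the N module, showed the smallest difference of the core. It had 66.6 and 43.5 CPM in cKO against 29.0, 69.3 and 86.0 CPM in WT, and WT replicate 1 was the lowest library of all. Its log2 fold change was -0.26 ± 0.46 (edgeR adjusted p = 0.842), and its sign turned with the processing: on the deposited TPM values (relative transcript abundance, in which reads are divided by effective length) it was 0.64, and with an offset for the length implied by reads and TPM it was 0.48. Its mean TPM was 71.7 in cKO and 45.7 in WT.

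**Figure D3:**
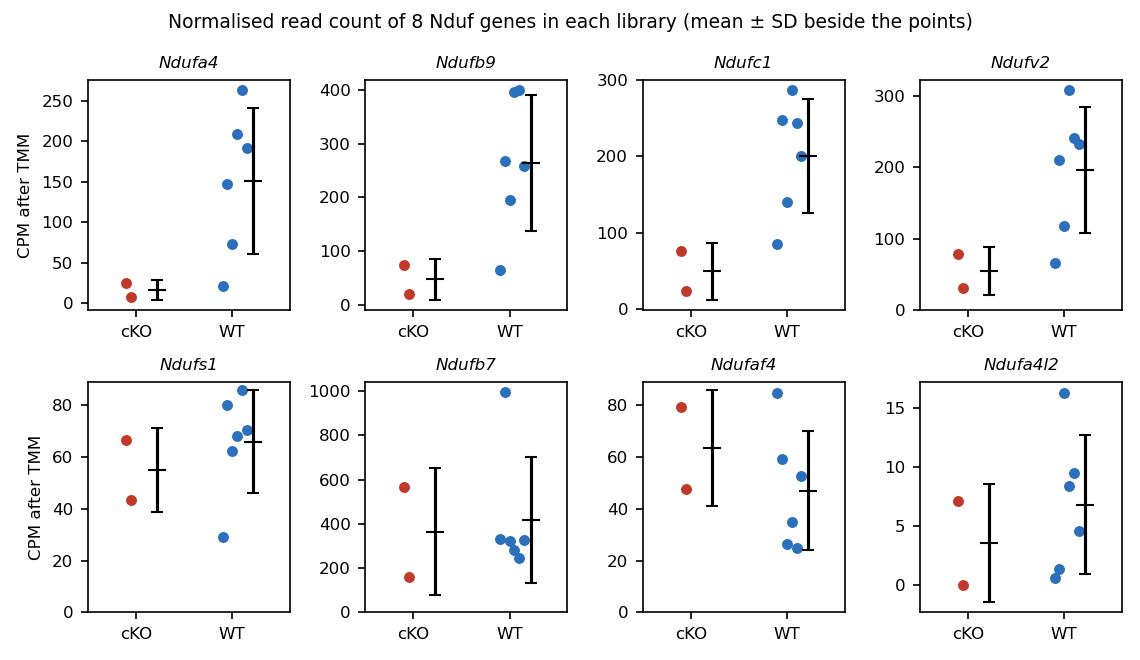
Normalised read count (CPM after TMM scaling) of 8 Nduf genes in each library, cKO in red and WT in blue, with the group mean ± SD beside the points (n = 2 and 6). The cKO points of Ndufc1 lie below all WT points, those of Ndufa4, Ndufb9 and Ndufv2 overlap only with WT replicate 1, and those of the other 4 genes fall within or across the WT spread.

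Accessory subunits of the N module help to frame the NADH-oxidising tip of the complex. All 6 had a fold change below 0, from -1.84 to -1.18 with a median of -1.34, and 4 had an unadjusted p under 0.05. Ndufa7 had 140 and 24.5 CPM in cKO against 131, 330 and 397 CPM (lowest, median and highest) in WT (log2 fold change -1.84 ± 0.66, edgeR adjusted p = 0.369, DESeq2 adjusted p = 0.0447). Ndufa12, which belongs to the last parts added to the arm that faces the matrix, had 143 and 62.5 CPM in cKO against 119.7, 261 and 423 CPM in WT (log2 fold change -1.32 ± 0.55). WT replicate 1 was the one WT library inside the cKO range in both. Ndufs6 (-1.37), Ndufv3 (-1.19), Ndufs4 (-1.42) and Ndufa2 (-1.18) showed like log2 fold changes, and Ndufs4 is the subunit whose loss causes Leigh syndrome in humans.

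The 3 accessory subunits of the Q module and its junction with the membrane arm were all lower by their means, from -1.46 to -0.31 on the log2 scale. Ndufa6 had 165 and 44.8 CPM in cKO against 102, 315 and 418 CPM (lowest, median and highest) in WT, a log2 fold change of -1.46 ± 0.63 (edgeR adjusted p = 0.383). Ndufa9 had 109.5 and 31.2 CPM in cKO against 57.4, 149 and 186 CPM in WT, for a log2 fold change of -0.99 ± 0.56. Ndufa5, named here after its values were seen, was at 403 and 107 CPM in cKO and 155, 257 and 689 CPM in WT (log2 fold change -0.31 ± 0.63), with WT replicate 2 as its highest library.

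In the proximal membrane arm all 9 accessory subunits had a fold change below 0, with a median of -0.87, and 2 had an unadjusted p under 0.05. Ndufc1 (chromosome 3, 51404677 to 51408988, minus strand), a small membrane subunit, had 75.7 and 23.1 CPM in cKO and 85.8, 222 and 286 CPM (lowest, median and highest) in WT. Its groups did not overlap, and its log2 fold change was -1.99 ± 0.61 (edgeR adjusted p = 0.369, DESeq2 adjusted p = 0.0236). Ndufc2, its neighbour in the complex, had 94.4 and 23.1 CPM in cKO and 86.3, 184 and 225 CPM in WT (log2 fold change -1.53 ± 0.58). Ndufa13, also known as Grim-19 and studied as a cell death factor, had 349.8 and 76.1 CPM in cKO and 213, 296 and 611 CPM in WT (log2 fold change -0.68 ± 0.60). Ndufa11 had 292 and 61.1 CPM in cKO and 168, 284 and 519.5 CPM in WT (log2 fold change -0.76 ± 0.61). In the last 2 genes cKO replicate 1 lay above the WT median and cKO replicate 2 below every WT library. The other 5 ran from -0.97 (Ndufa8) to -0.51 (Ndufa3).

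The distal membrane arm held 11 accessory subunits, all with a fold change below 0, with a median of -1.03 and 3 at an unadjusted p under 0.05. Ndufb9 (chromosome 15, 58933756 to 58939488, plus strand) had 73.7 and 20.4 CPM in cKO and 65.6, 263 and 399 CPM (lowest, median and highest) in WT. WT replicate 1 lay inside the cKO range and the other 5 WT libraries at 195 CPM or more, and the log2 fold change was -2.46 ± 0.73 (edgeR adjusted p = 0.369, DESeq2 adjusted p = 0.0142). Ndufb8, whose protein is a common marker of assembled complex I, had 111 and 28.5 CPM in cKO and 57.9, 242 and 360.3 CPM in WT (log2 fold change -1.71 ± 0.70, edgeR adjusted p = 0.378). Ndufb5 was at -1.27 and Ndufab1, the mitochondrial acyl carrier protein, at -1.35. At the other end stood Ndufb7, also picked after its values were seen, with 567 and 162 CPM in cKO and 248, 324 and 995 CPM in WT (log2 fold change -0.19 ± 0.63). Its value in cKO replicate 1 was above 5 of the 6 WT libraries.

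The assembly factors, which build the complex without staying in it, were the only role group with members higher in cKO, 3 of 8, and their median was -0.72. Whether they differ from the subunits was not tested. Ndufaf4 had 79.2 and 47.5 CPM in cKO and 24.8, 43.7 and 84.7 CPM (lowest, median and highest) in WT, with WT replicate 1 the highest library (log2 fold change 0.44 ± 0.51, and -0.04 without cKO replicate 1). Ndufaf7, a mitochondrial methyltransferase, had 29.3 and 20.4 CPM in cKO and 7.37, 18.1 and 35.6 CPM in WT (log2 fold change 0.34 ± 0.63). Ndufaf6 rested on few reads, 53 and 4 in cKO and 3 to 65 in WT. It had 26.7 and 5.43 CPM in cKO and 1.64, 11.002 and 17.7 CPM in WT (log2 fold change 0.77 ± 0.89, and -0.89 without cKO replicate 1). All 3 thus had cKO replicate 1 in the upper part of the WT range or above it. Ndufaf8 was lowest in the group, at 15.6 and 2.72 CPM in cKO and 12.6, 43.7 and 66.1 CPM in WT (log2 fold change -2.03 ± 0.77, edgeR adjusted p = 0.372), and its value in cKO replicate 2 was under the limit of 3 reads, 4.08 CPM. Ndufaf3 was at 33.3 and 14.9 CPM in cKO and 20.8, 51.5 and 75.7 CPM in WT (log2 fold change -1.04 ± 0.55).

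Ndufa4 (chromosome 6, 11900292 to 11907497, minus strand), now counted as a subunit of cytochrome c oxidase (complex IV), had the most negative fold change of the 46 genes. The cKO libraries held 25.7 and 8.15 CPM, and WT replicates 1 to 6 held 21.3, 148, 72.9, 209, 263 and 192 CPM. WT replicate 1 was thus below cKO replicate 1, and the other 5 WT libraries were above both cKO libraries. The log2 fold change was -3.09 ± 0.88 (SE, edgeR adjusted p = 0.369, DESeq2 adjusted p = 0.00985). Leaving out cKO replicate 2 gave -2.63, and leaving out cKO replicate 1 gave -4.27.

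Ndufa4l2 (chromosome 10, 127514967 to 127517154, plus strand) is the paralog of Ndufa4 that HIF1 is known to induce under low oxygen. It rested on few reads, 14 and 0 in cKO replicates 1 and 2 and 1, 5, 42, 35, 42 and 21 in WT replicates 1 to 6. These are 7.07 and 0 CPM in cKO, and 0.547, 1.36, 16.3, 8.42, 9.46 and 4.56 CPM in WT. A count of 0 in cKO replicate 2 allows up to 4.08 CPM, so a level like that of WT replicates 1 and 2 was not detectable there, while WT replicates 3 to 6 were above that limit. The log2 fold change was -0.80 ± 1.34 (edgeR adjusted p = 0.825), and -0.01 without cKO replicate 2.

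Length was considered because short genes were lower in cKO across the whole table. The deposited effective length could not be used as it stands for most genes: in rows with a single transcript, TPM times effective length divided by reads is 1 constant per library, but only 10.4% to 14.7% of named rows with more than 20 reads came within 1% of it. The length behind each TPM value was therefore taken from reads and TPM, and is called implied. Over the 46 genes the deposited length had a median of 204 bases (34.5 to 2446) and the implied one 531 bases (205 to 2446), while the longest annotated coding transcript had a median of 994 bases. For 25 of the 46 genes the deposited length was under 50% of the implied one, as for Ndufs1, with 121 deposited and 1112 implied bases. Ndufa11, at 2446 bases on both, exceeded its longest coding transcript in GENCODE M21, which has 918 bases.

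The nuclear Nduf genes are short beside the median tested gene (714 deposited and 2083 implied bases), and most were lower than the median of other genes of like length. In the bin under 500 implied bases, 22 of 22 members were lower (60.3% of all genes there), with a median log2 fold change of -1.34, beside -0.31 for 733 other genes. Between 500 and 1000 bases, 15 of 16 members were lower (67.8%), with a median of -0.94, beside -0.58 for 1905 others. Between 1000 and 2000 bases, 5 of 6 members were lower (58.3%), with -0.66, beside -0.23 for 4531 others. Over 2000 bases Ndufa11 was lower and Ndufaf7 was not (45.1%), with a median of -0.21, beside 0.12 for 7887 others. Of the 46 genes, 40 lay below the median of their own bin, and the median gap to the bin was -0.57 with implied and -0.80 with deposited length. Across the members, longer genes had log2 fold changes nearer to 0 (Pearson r = 0.43 over 46 genes with implied length and 0.36 with deposited length, against 0.18 and 0.13 over all genes), as a description of genes that share the same 8 libraries.

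Other short genes deviated in the same libraries and in the same direction as the nuclear Nduf genes, by less. Their median deviation from the WT mean, for genes with an implied length under 1000 bases, was -0.20 and -0.73 in cKO replicates 1 and 2, and -0.32, 0.26, -0.14, 0.13, 0.06 and 0.09 in WT replicates 1 to 6. For the 38 members of that length the values were -0.46 and -2.33 in cKO, and -1.11, 0.51, -0.24, 0.24, 0.25 and 0.15 in WT. When the trend with implied length was removed within each library, the median of the 46 genes was -0.60, with 41 lower, 8 at an unadjusted p under 0.05 (17.4%, against 7.84% of all genes) and 0 called. With the count of detected genes in the model it was -0.49, beside -0.26 over all genes, with 0 members at an unadjusted p under 0.05 in edgeR, against 2.31% of all genes. That count was 12120 to 12847 in cKO and 13597 to 14727 in WT. It separates the groups by itself, so this fit cannot cleanly tell detection from group.

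**Figure D4:**
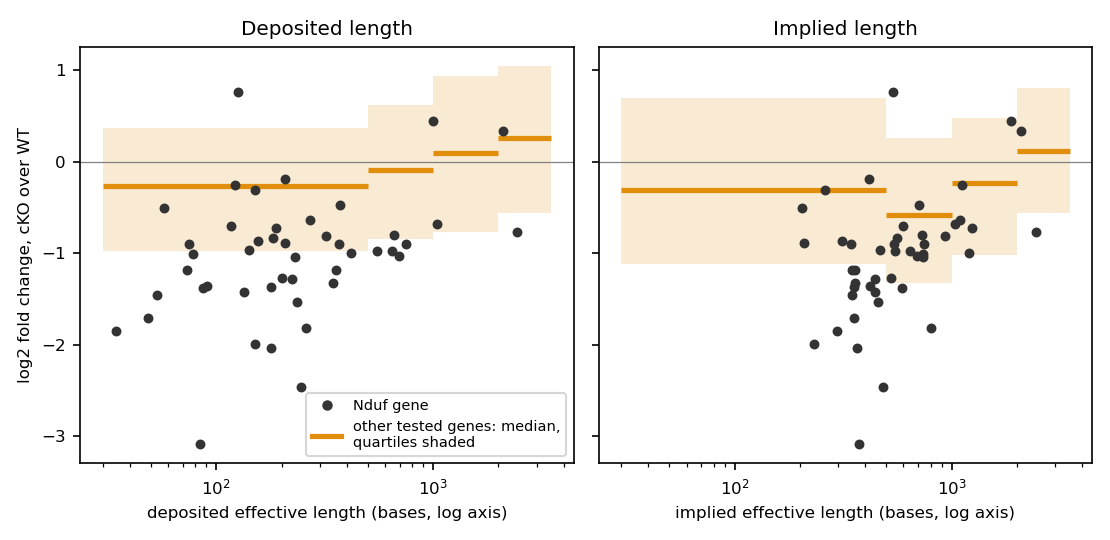
Log2 fold change (cKO over WT) of the 46 Nduf genes (dots) against the deposited (left) and the implied (right) mean effective length on log axes, with the median (line) and quartiles (shading) of other tested genes in bins split at 500, 1000 and 2000 bases. The outer bins are open. In the implied bin under 500 bases the member median was -1.34 and that of other genes -0.31.

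Levels compared per length, as mean TPM in the 6 WT libraries, were highest for Ndufa2 (1010.1 ± 312 TPM, SD), Ndufa5 (970.1 ± 393), Ndufa7 (865 ± 270.5), Ndufb7 (821 ± 369) and Ndufc1 (819 ± 273), and these neighbours do not differ beyond their spread. The lowest were Ndufaf7 (8.05 ± 4.27 TPM), Ndufa4l2 (8.70 ± 8.49), Ndufaf1 (12.8 ± 4.56), Ndufaf6 (15.5 ± 10.7) and Ndufaf4 (22.3 ± 10.6). In the cKO libraries mean TPM was 432 for Ndufa2, 841 for Ndufa5, 223 for Ndufa7, 713 for Ndufb7 and 145 for Ndufc1. Summed over the 46 genes, TPM was 11380 and 4289 in cKO replicates 1 and 2 and from 10130 to 18620 in WT, where WT replicate 1 was again the lowest. Exons of 19 of the 46 genes overlap those of another gene, mostly on the opposite strand. Since the labels do not say that strand was used in counting, reads in those stretches cannot be assigned with certainty.

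The complex I genes of the mitochondrial genome lay in the opposite direction, as did the mitochondrial genome as a whole. It took 8.87% and 10.5% of reads in cKO replicates 1 and 2 and 1.43% to 3.65% in WT. The higher share was thus not confined to its complex I genes. All 7 mt-Nd genes had both cKO libraries above all 6 WT libraries (6.02% of all genes did), their median log2 fold change was 1.27, and 4 had an unadjusted p under 0.05 (3.4% of all genes), while 0 were called. Together they took 2.40% and 2.46% of reads in cKO replicates 1 and 2, against 0.402% to 1.014% in WT. The cKO libraries thus lay close to each other, and WT replicate 1, at 0.914%, lay within the range of the other WT libraries. For mt-Nd5 the values were 5969 and 5334 CPM in cKO, against a highest WT value of 2398 CPM (log2 fold change 1.76 ± 0.53, edgeR adjusted p = 0.369), and for mt-Nd1 the log2 fold change was 1.76 ± 0.65.

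**Figure D5:**
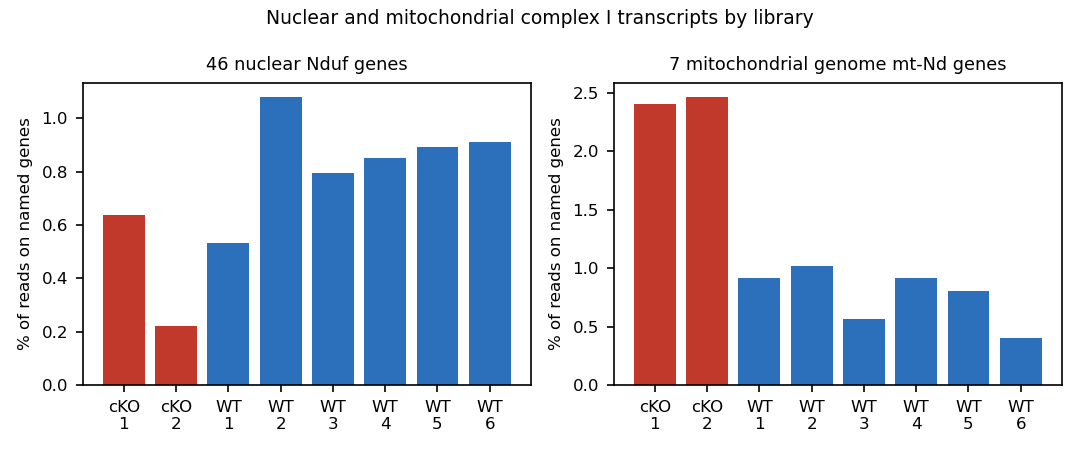
Share of reads on named genes taken by the 46 nuclear Nduf genes (left) and the 7 mt-Nd genes (right) in each library, cKO in red and WT in blue. Nuclear shares were 0.636% and 0.222% in cKO replicates 1 and 2 and 0.533% in WT replicate 1, while the mt-Nd shares of both cKO libraries exceed those of all WT libraries.

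Complex I assembly factors outside the Nduf names (12 of 13 listed genes tested) showed a mixed picture, with 7 lower, 5 higher, a median log2 fold change of -0.47 and 0 called. Dmac1, a membrane arm factor, had 9.08 and 6.79 CPM in cKO and 6.01, 43.5, 34.9, 70.0, 61.9 and 56.6 CPM in WT replicates 1 to 6, with WT replicate 1 below both cKO libraries and the other 5 WT libraries above them (log2 fold change -2.49 ± 0.80, edgeR adjusted p = 0.369). Aifm1, which aids the import of respiratory chain subunits and takes part in cell death, had 45.9 and 25.8 CPM in cKO, below all WT libraries, the lowest of which had 46.5 CPM (log2 fold change -1.23 ± 0.49, edgeR adjusted p = 0.377).

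Among 10 transcription factors and coactivators of respiratory chain genes, 5 were lower and 5 higher, with 0 called. Ppargc1a, the coactivator PGC-1alpha, had 9.08 and 14.9 CPM in the cKO libraries, against 2.19, 5.71, 1.16, 1.68, 1.80 and 2.60 CPM in WT replicates 1 to 6. It was higher in cKO with no overlap, on few reads (29 in cKO), with a log2 fold change of 2.22 ± 0.96 (edgeR adjusted p = 0.386). Yy1 had 19.7 and 17.7 CPM in cKO and 21.3, 30.7, 59.0, 43.8, 43.5 and 42.5 CPM in WT, lower with no overlap (log2 fold change -1.10 ± 0.51, edgeR adjusted p = 0.406). It had 52 reads in cKO. Gabpa, part of an ETS factor, was also lower with no overlap (12.6 ± 7.13 CPM in cKO and 24.8 ± 5.22 CPM in WT, SD, log2 fold change -1.02 ± 0.58). It had 28 reads in cKO, and its 17.7 CPM in cKO replicate 2 lay just below the lowest WT value, 18.6 CPM. Over all genes, 6.41% were lower and 6.02% higher with no overlap. Yy1 and Gabpa were picked with their values known. Nrf1 averaged 58.7 ± 18.8 CPM in cKO and 80.6 ± 30.04 CPM in WT, with overlap (log2 fold change -0.47 ± 0.49). The 7 genes shown above with an NRF1 motif upstream of a RefSeq start had log2 fold changes from -1.37 for Ndufs6 to 0.44 for Ndufaf4.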

How the data were processed

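Per the submitters' processing notes, HISAT2, Salmon and the mm10 genome were used, without versions or annotation. Each library's table, as the authors deposited it, holds estimated counts, TPM values and lengths for 36635 rows, of which 1548 carry only a transcript identifier (0.435% to 0.739% of reads) and were left out. The members and lists were chosen with earlier results of these data known.

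The deposited estimated counts were rounded and filtered with edgeR's filterByExpr (minimum count 10, minimum total 15), leaving 15102 genes, scaled by TMM and compared with edgeR 4.0.16 (glmQLFit and glmQLFTest on group) under R 4.3.3. Adjusted p-values are Benjamini-Hochberg values over all genes, called under 0.05. The SE of a log2 fold change comes from its F statistic, and the biological coefficient of variation was 0.699. DESeq2 1.42.0 on the same genes, limma 3.58.1 on log2(TPM + 1) of the deposited TPM, length offsets, a replicate term and omission of each library were alternatives. Implied length is reads times a library constant divided by TPM. Coordinates are from GENCODE M21 (GRCm38, which mm10 denotes).

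A gene with 0 reads may have had up to 3, which is 0.651 to 4.08 normalised CPM. Reads have no molecular identifiers, so this covers counting error only. Libraries differed beyond sampling noise in every pair, with a chi-square per degree of freedom of 14.2 to 112 over 28 pairs. Named members were Ndufa4l2, the core subunits, the 2 smallest p in each role group, all with a fold change above 0, and the 3 shortest and longest. The values of 1 member are not reported here, and it is counted in the totals. Other genes appear with single values or as role examples.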

Additional observations from a re-analysis of the deposited data

Results flagged for a closer look

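Of 26 values examined for a WT library far from the other 5, 1 was singled out, about the number that chance gives at 1 in 20. Ndufs3 had 49.7 CPM in WT replicate 1, and its gap to the next library was 0.632 of the WT range, past Dixon's limit for 6 values.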

How the results depend on the processing

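Depth limits the results most in cKO replicate 2, and with 2 cKO libraries every group value leans on each of them. Across the settings tried, the median log2 fold change of the 46 genes stayed below 0. Shorter and longer members are split at 1000 bases of deposited effective length. The longer ones are Ndufa11, Ndufa13 and Ndufaf7, so their median is the value of a single gene. In the edgeR fit of all 8 libraries the medians were -0.99 for shorter and -0.68 for longer members. Split at 1000 implied bases instead, they were -1.03 and -0.66. With no filter, edgeR called 3 of the 46 members, and 478 of the 25322 genes tested. DESeq2 called 4 of the 43 members that it gave an adjusted p, all lower (9.3%, against 3.08% of all genes given one). In what follows the share of all genes stands in brackets. The number lower with no overlap was 6 with DESeq2's size factors or DESeq2 (5.91%), 8 without TMM (6.96%), 5 with no filter (4.30%), 7 with a minimum of 10 reads in 6 libraries (7.27%), 11 on log2(TPM + 1) (7.07%), 5 with the length trend removed (6.34%), 2 with the implied length offset (6.32%) or trend (6.38%), and 6 in the libraries numbered 1 and 2 (14.8%). The number lower at an unadjusted p under 0.05 was 27 on log2(TPM + 1) (8.89%), 8 with the implied length trend removed (7.84%), 0 with detected genes as a covariate (2.31%) and 2 in the libraries numbered 1 and 2 (1.22%). Detected genes as a covariate, a count that separates the groups by itself, put the median gap to the length bin at -0.20. Setting cKO replicate 1 against WT replicates 2 to 6, with WT replicate 1 dropped after it was seen to be low, is a description with 1 cKO library: 24 members were below all WT values (22.6%), 7 had an unadjusted p under 0.05 (7.11%) and the median of longer members was -0.0831.

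Leaving out each library gave 0 called members throughout, 1 to 34 members at an unadjusted p under 0.05 (3.5% to 13% of all genes) and 1 to 40 with no overlap (6.59% to 23.5%). Medians ranged from -2.25 to -0.51 for all members, -2.26 to -0.57 for shorter and -2.24 to -0.0225 for longer ones, and the gap to the length bin from -1.84 to -0.25. Some fold changes turned in sign. Ndufs1 was at 0.64 on log2(TPM + 1), 0.11 and 0.0699 with the deposited and implied length trend removed, 0.48 with the implied length offset, 0.24 with detected genes as a covariate, and 0.13 in the libraries numbered 1 and 2. Ndufaf4 was at -0.12 in those libraries. Leaving out each library gave -0.0383 to 0.70 for Ndufaf4, -0.89 to 1.41 for Ndufaf6 and -0.0141 to 0.62 for Ndufaf7, the lowest in each case without cKO replicate 1. Detected genes as a covariate put Ndufa4l2 at 0.19 and Ndufv1 at 0.22. The cause was not tested.

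The replicate block left 0 members at an unadjusted p under 0.05, as against 0.795% of all genes, and put Ndufa4l2 at 1.26, Ndufaf4 at -0.20 and Ndufs1 at 0.17. The groups share 2 replicate numbers only. With each group centred on its own mean, libraries of the same number had correlations of -0.289 and -0.165 over genes. The centred values of 2 cKO libraries mirror each other, so WT replicate 1 had 0.289 with cKO replicate 2. These correlations therefore cannot show whether the numbers pair the libraries.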
